A study of Mus musculus with 18 samples.

Results

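The 9 glucose genes described here carry the liver's switch between making and using glucose: G6pc, Pck1, Fbp1, Ppargc1a, Gys2, Pygl, Slc2a2, Pklr and Pdk4. They were taken by symbol from the mRNA arrays, where 11 probes matched the 9 symbols, and all 9 were among the 24820 genes that were tested. The samples were livers of male C57BL/6 mice aged 6 weeks in 3 groups. The control group received vehicle, the MCT 270 group 270 mg/kg of monocrotaline and the MCT 330 group 330 mg/kg, each as a single oral dose with 8 mice per group. All mice had been without food for 12 h before dosing, could eat afterwards, and were killed 48 h after the dose. Monocrotaline is a pyrrolizidine alkaloid of Crotalaria plants that liver enzymes turn into a reactive pyrrole, and it is used to injure the sinusoidal endothelium of the liver. How much the mice ate after dosing is not given in the sources used here.

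The fasted liver releases glucose by breaking down glycogen and by gluconeogenesis, which rebuilds glucose from lactate, amino acids and glycerol. Glucagon acts through cyclic AMP to raise genes such as Pck1, G6pc and Ppargc1a, and glucocorticoids act with it, whereas insulin lowers them after a meal. Pdk4 belongs to the same fasting response: its product blocks the pyruvate dehydrogenase complex, which keeps pyruvate from being oxidised. Promoter stretches of 4 of the genes are shown because glucagon and insulin are known to act on this group through transcription. Each runs 5′ to 3′ along the gene's strand over the 250 bases before the transcript start, from RefSeq on GRCm38.p6. The capitals mark a match to ACGTCA, the core of the cyclic AMP response element, or to TGTTTNC, a motif of forkhead factors such as FOXO1. Both strands were searched, the motifs share no overlapping match in these stretches, and a match is a description of letters and not a measured binding site.
The G6pc stretch lies on the plus strand at chr11:101367466-101367715 and holds TGTTTNC, first base at -141.
G6pc: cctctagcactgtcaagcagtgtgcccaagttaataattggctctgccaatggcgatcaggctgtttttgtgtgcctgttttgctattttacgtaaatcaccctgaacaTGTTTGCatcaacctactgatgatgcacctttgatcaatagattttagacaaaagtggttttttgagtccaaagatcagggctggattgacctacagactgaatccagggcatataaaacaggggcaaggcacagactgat
The Pck1 stretch lies on the plus strand at chr2:173152823-173153072 and holds ACGTCA, first base at -91.
Pck1: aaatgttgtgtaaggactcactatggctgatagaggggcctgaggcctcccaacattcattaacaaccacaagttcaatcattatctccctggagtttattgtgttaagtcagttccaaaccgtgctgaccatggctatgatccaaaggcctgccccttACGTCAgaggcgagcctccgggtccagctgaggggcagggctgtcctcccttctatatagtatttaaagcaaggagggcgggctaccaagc
The Ppargc1a stretch lies on the minus strand at chr5:51567726-51567975 and holds ACGTCA, first base at -50.
Ppargc1a: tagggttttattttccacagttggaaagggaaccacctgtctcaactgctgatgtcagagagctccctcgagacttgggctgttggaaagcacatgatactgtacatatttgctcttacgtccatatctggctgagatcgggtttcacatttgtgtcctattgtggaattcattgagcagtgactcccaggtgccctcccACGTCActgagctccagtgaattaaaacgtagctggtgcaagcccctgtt
The Pdk4 stretch lies on the minus strand at chr6:5496279-5496528 and holds neither motif.
Pdk4: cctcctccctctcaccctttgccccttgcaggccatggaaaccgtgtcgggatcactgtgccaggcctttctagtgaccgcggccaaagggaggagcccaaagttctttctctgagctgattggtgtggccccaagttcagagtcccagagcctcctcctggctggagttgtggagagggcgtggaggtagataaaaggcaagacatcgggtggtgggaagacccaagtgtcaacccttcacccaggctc
In the promoter table, ACGTCA stood in 6.47% and TGTTTNC in 17.8% of 32851 stretches of this length. The table held stretches for 8 of the 9 genes, and those of Fbp1, Pygl, Slc2a2 and Pklr held neither motif.

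Each array gave 1 colour, and a value below is the log2 of the scanner's processed signal minus the array's 75th percentile, so that 0 is the brightness of that percentile. Levels of different genes are not set against each other, because each probe has its own brightness. Each group had 3 arrays labelled as separate mice, but arrays within a group differed in places by less than repeated spots of a probe on 1 array. On the brighter probes, replicates 2 and 3 of each group lay at 0.446 to 0.561 times that noise, MCT 330 replicate 1 at 0.776 and 0.806 times from its group's other arrays, and control and MCT 270 replicate 1 at 3.17 to 3.34 times. Such arrays were averaged, which left 2 control, 2 MCT 270 and 1 MCT 330 sample, and every difference at 330 mg/kg takes its spread from the other 2 groups. The placement of MCT 330 replicate 1 is the least certain: by a plain SD over all probes it lay at 1.19 and 1.24 times the noise. As a sample of its own it would raise the 5 glucose genes called at 330 mg/kg against control to 8. These would be 7 lower ones, Ppargc1a by its brighter probe among them, and 1 higher, Pdk4. The MCT 330 arrays were scanned apart from all others, so scan and group cannot be told apart there, while control and MCT 270 arrays shared scans. Between 64.0% and 80.9% of spots were well above background on an array, no spot was saturated, and arrays had 75th percentiles between 498.2 and 703. All 11 probes of the 9 genes were well above background on every array. The number of arrays limits the precision, and the p-values measure only the spread between these samples.

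At 330 mg/kg 5 of the 9 glucose genes, G6pc, Gys2, Fbp1, Pygl and Slc2a2, fell against control, by 1.93-fold to 13.5-fold. No glucose gene was called higher against control. Of all genes, 23.9% fell and 9.48% rose in that comparison. At 270 mg/kg none of the 9 passed the test against control, and neither did any other of the 24820 genes. Pdk4 was the exception in direction, with its lowest values at MCT 270 and its highest at MCT 330, and it rose 14.3-fold in MCT 330 against MCT 270. The threshold throughout is a Benjamini-Hochberg adjusted p of 0.05 over all 24820 genes in limma's moderated test.

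**Figure D1:**
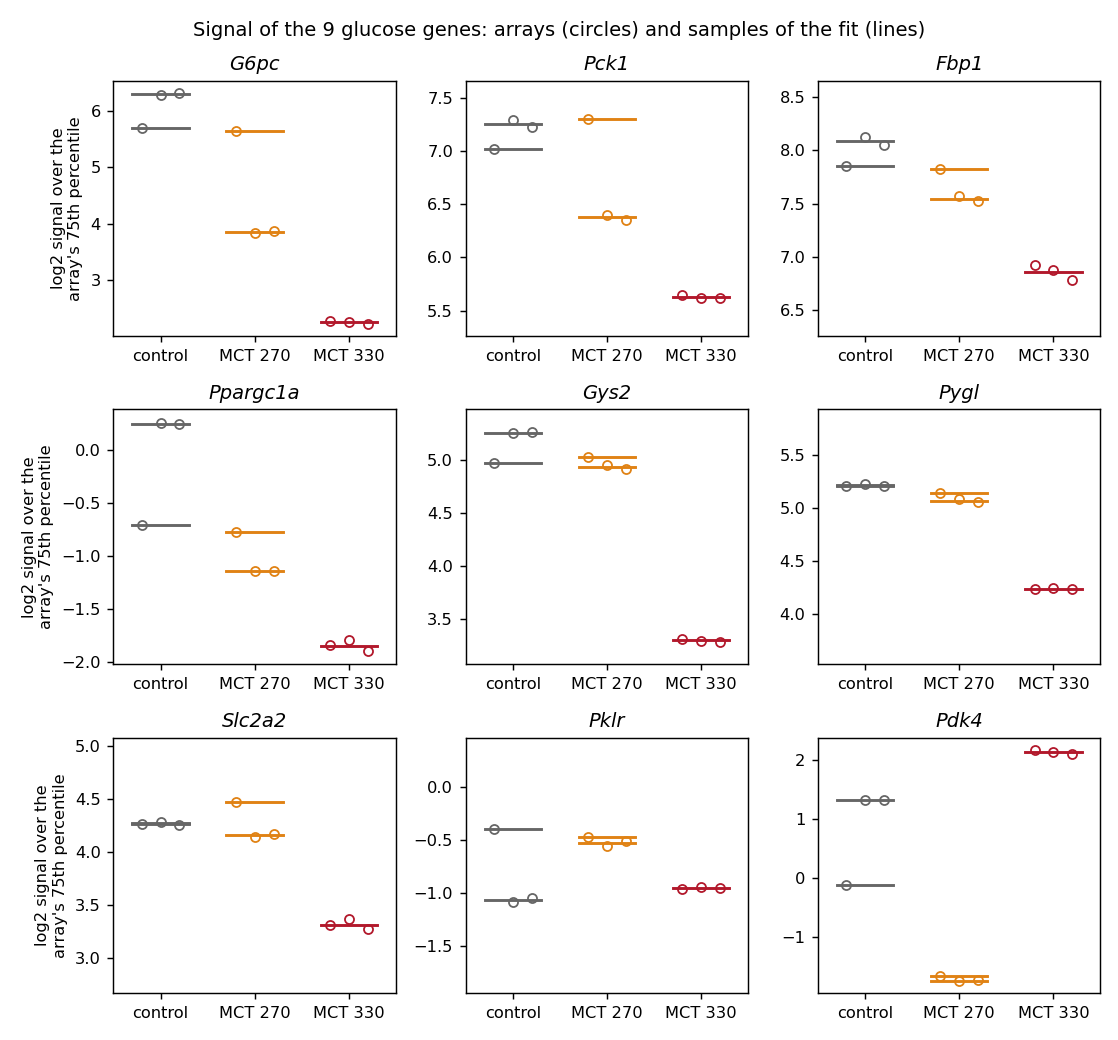
Log2 signal over the array's 75th percentile (y axis) of each of the 9 glucose genes in control, MCT 270 and MCT 330 livers (x axis), with 1 panel and 1 scale per gene. Circles are the 9 arrays and lines the 5 samples made from them; G6pc, Gys2, Fbp1, Pygl and Slc2a2 lie lowest at MCT 330, and Pdk4 lies highest there.

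G6pc encodes the catalytic subunit of glucose-6-phosphatase, which frees glucose in the last step of both gluconeogenesis and glycogen breakdown. Its log2 signal was 5.70 and 6.31 in the control samples, 5.65 and 3.86 in the MCT 270 samples and 2.25 in the MCT 330 sample. The MCT 330 sample stood at 7.38% of the control mean, below every other sample, and the 2 MCT 270 samples lay far apart, at 78.2% and 22.6%. G6pc fell in MCT 330 against control by 3.76 on the log2 scale (SE 0.78, 95% interval -5.79 to -1.72, adjusted p = 0.0257, limma), a 13.5-fold lower signal. MCT 270 lay below both controls at -1.25 ± 0.63 (SE), with an adjusted p of 0.369. Between the doses the difference was -2.51 ± 0.78 (SE), with an adjusted p of 0.0819 and an interval of -4.55 to -0.48.

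Pck1 encodes cytosolic phosphoenolpyruvate carboxykinase, which opens gluconeogenesis from oxaloacetate. The log2 signal of Pck1 was 7.02 and 7.26 in control, 7.31 and 6.38 in MCT 270 and 5.63 in MCT 330. The MCT 330 sample was the lowest, at 35.0% of the control mean, and the MCT 270 samples lay on both sides of the controls. Neither dose passed the test: MCT 330 against control gave -1.51 ± 0.42 (SE) with an adjusted p of 0.0525, just above the threshold, and MCT 270 gave -0.30 ± 0.35 with an adjusted p of 0.678.

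Fbp1 encodes fructose-1,6-bisphosphatase, the liver enzyme that turns back the committed step of glycolysis. In log2 signal it stood at 7.85 and 8.09 in control, 7.82 and 7.54 in MCT 270 and 6.86 in MCT 330. Samples of the 3 groups did not overlap, but control and MCT 270 came as near as 7.85 and 7.82. In that comparison 27.4% of all genes lay lower without overlap. The MCT 330 signal was 46.3% of the control mean. Fbp1 fell in MCT 330 against control by 1.11 on the log2 scale (SE 0.23, adjusted p = 0.0269, limma). Its difference at MCT 270 against control was -0.29 ± 0.19 (SE, adjusted p = 0.477), and between the doses it was -0.83 ± 0.23 (adjusted p = 0.0675).

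Ppargc1a encodes the coactivator PGC-1alpha, which in fasted liver drives gluconeogenic genes and mitochondrial oxidation. Its brighter probe, A_51_P279038, had log2 signals of -0.71 and 0.25 in control, -0.77 and -1.14 in MCT 270 and -1.84 in MCT 330. On that probe MCT 330 was the lowest sample, with a difference against control of -1.61 ± 0.45 (SE) and an adjusted p of 0.0510 in limma. The dimmer probe, A_55_P2011702, did not follow it: the difference was 0.04 for MCT 330 and 0.80 for MCT 270 against control. Its MCT 330 arrays lay at -2.50, -2.42 and -2.46, inside the range of its control arrays at -2.91, -2.08 and -2.10. Both probes were well above background on every array, so the 2 probes disagree and no direction is given for Ppargc1a.

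**Figure D2:**
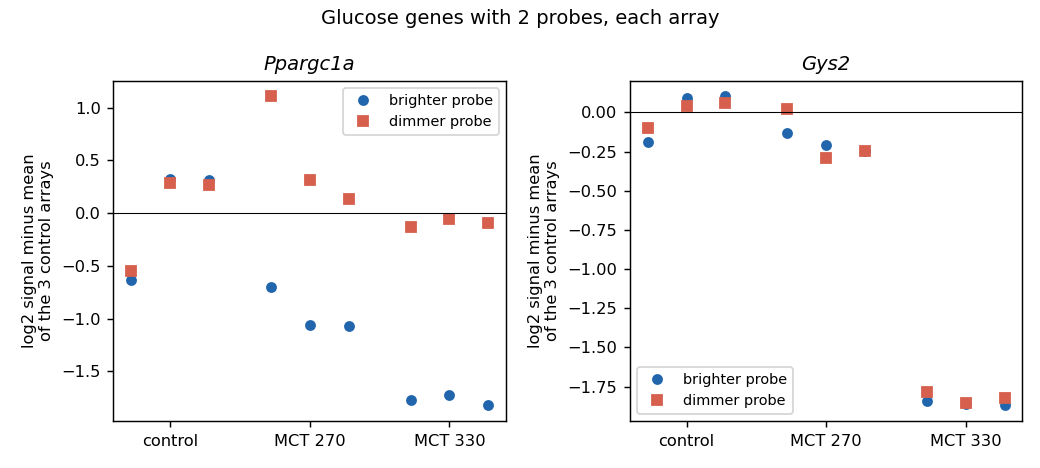
Log2 signal of each probe minus its mean over the 3 control arrays (y axis) on the 9 arrays (x axis, grouped by dose), for the 2 glucose genes with 2 probes. The Gys2 probes run together and lie lowest at MCT 330, whereas for Ppargc1a the brighter probe is lower at MCT 330 and the dimmer probe is inside its control range.

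Gys2 encodes the liver form of glycogen synthase, which lays down glycogen. Samples had log2 signals of 4.97 and 5.26 in control, 5.02 and 4.93 in MCT 270 and 3.30 in MCT 330. Control and MCT 270 samples overlapped, while MCT 330 stood apart at 28.5% of the control mean. Gys2 fell by 1.81 in MCT 330 against control (SE 0.22, 95% interval -2.39 to -1.24, adjusted p = 0.00997, limma). It also fell by 1.68 in MCT 330 against MCT 270 (SE 0.22, adjusted p = 0.0208), and MCT 270 against control was -0.13 ± 0.18 (adjusted p = 0.722). The second Gys2 probe gave -1.80 for MCT 330 and -0.10 for MCT 270 against control. Against control at 330 mg/kg Gys2 was called under all 22 alternatives tried, with adjusted p up to 0.0380.

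Pygl encodes the liver glycogen phosphorylase, which breaks glycogen down, so it works against Gys2. Log2 signals of Pygl were 5.20 and 5.21 in control, 5.13 and 5.07 in MCT 270 and 4.24 in MCT 330. The control samples were almost equal, and MCT 330 stood at 51.0% of their mean. Pygl fell by 0.97 in MCT 330 against control (SE 0.19, adjusted p = 0.0215, limma) and by 0.86 in MCT 330 against MCT 270 (SE 0.19, adjusted p = 0.0376). The synthase and the phosphorylase therefore both fell at the higher dose. MCT 270 against control was -0.11 ± 0.15 (SE), with an adjusted p of 0.733.

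Slc2a2 encodes GLUT2, the transporter through which hepatocytes take up and release glucose. Its log2 signal was 4.26 and 4.27 in control, 4.47 and 4.16 in MCT 270 and 3.32 in MCT 330. The MCT 330 sample was the lowest, at 51.8% of the control mean, and MCT 270 samples lay on both sides of the controls. Slc2a2 fell by 0.95 in MCT 330 against control (SE 0.22, adjusted p = 0.0343, limma) and by 1.00 in MCT 330 against MCT 270 (SE 0.22, adjusted p = 0.0407). Of 22 alternatives, the call against control at 330 mg/kg was lost in 8 for Slc2a2, 5 each for Fbp1 and Pygl and 3 for G6pc. Between the doses the call was lost in 6 for Slc2a2, 5 for Pygl and 3 each for Gys2 and Pdk4. Fbp1, Pygl and Slc2a2 lost the call against control when each array was set on its median, with values of -0.73, -0.59 and -0.57. The median of all genes in MCT 330 against control was -0.25 as scaled here and 0.13 under that scaling.

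Pklr encodes the liver pyruvate kinase, the last enzyme of glycolysis, which carbohydrate feeding raises. The log2 signal of Pklr was -0.39 and -1.07 in control, -0.47 and -0.53 in MCT 270 and -0.95 in MCT 330. All MCT values lay between those of the 2 control samples. MCT 330 against control was -0.22 ± 0.33 (SE), with an interval of -1.08 to 0.63 and an adjusted p of 0.626 in limma. Changes within that interval are not excluded by these samples.

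Pdk4 encodes pyruvate dehydrogenase kinase 4, which fasting, glucocorticoids and fatty acids raise. Its log2 signal was -0.12 and 1.32 in control, -1.66 and -1.74 in MCT 270 and 2.14 in MCT 330. The MCT 270 samples lay close together below both controls, at 20.9% and 19.7% of the control mean, and MCT 330 lay above both, at 289.6%. Pdk4 rose by 3.83 in MCT 330 against MCT 270 (SE 0.61, 95% interval 2.25 to 5.42, adjusted p = 0.0235, limma). Against control neither dose passed: MCT 330 was at 1.53 ± 0.61 (SE, adjusted p = 0.114) and MCT 270 at -2.30 ± 0.49 (adjusted p = 0.133). The control samples differed by 1.44, which is part of that error. Under 5 of 22 alternatives Pdk4 was called higher in MCT 330 against control. The fit with MCT 330 replicate 1 as its own sample was 1 of them. The call between the doses was lost without MCT 270 replicate 1 (adjusted p = 0.117) and without MCT 270 replicates 2 and 3 (adjusted p = 0.0937), where the differences were 3.88 and 3.79.

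**Figure D3:**
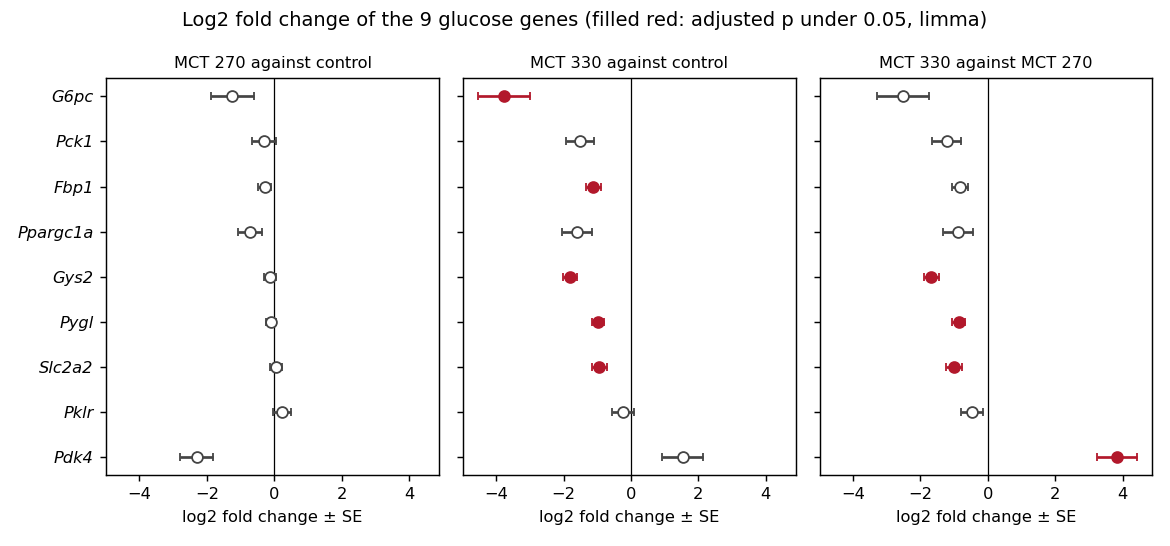
Log2 fold change of the 9 glucose genes (x axis, with bars of 1 SE) for MCT 270 against control, MCT 330 against control and MCT 330 against MCT 270. Filled points passed an adjusted p of 0.05 in limma: none at MCT 270, 5 lower ones at MCT 330 against control, and 3 lower ones and Pdk4 between the doses.

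Counted together, 5 of 9 glucose genes fell and 0 rose in MCT 330 against control, where 23.9% of all genes fell and 9.48% rose, 33.4% in all. Their median difference was -1.11, beside -0.25 over all genes tested. In 7 of 9, Ppargc1a by its brighter probe among them, the MCT 330 sample lay below both controls, as it did for 54.5% of all genes, and in 1 of 9, Pdk4, it lay above both, as for 32.1%. MCT 330 against MCT 270 gave 3 that fell (16.9% of all genes) and 1 that rose (4.96% of all genes), where 21.9% of all genes were called, with a median of -0.89 beside -0.23. The MCT 330 sample lay below both MCT 270 samples in 8 of 9 and above them in 1, beside 56% and 31.1% of all genes. MCT 270 against control gave 0 of 9, where 0% of all genes were called by limma. At an unadjusted p under 0.05, 1 of 9 passed there, Pdk4, beside 18.6% of all genes. Both MCT 270 samples lay below both controls in 5 of 9 and above them in 0, beside 27.4% and 25.4% of all genes. The lowest adjusted p of any gene in that comparison was 0.0598. Without control replicate 1 the genes that fell in MCT 330 against control were Fbp1, Gys2 and Pygl, as well as the brighter Ppargc1a probe, which the dimmer one did not follow, with an adjusted p of 0.0512 for G6pc. Without control replicates 2 and 3 Gys2 and Pygl fell and Pdk4 rose. Without MCT 270 replicate 1, or without MCT 270 replicates 2 and 3, G6pc, Pck1 and Gys2 fell. These comparisons share samples, so their values are not independent of each other.

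Within the scan that held replicates 1 and 2 of both groups, MCT 270 against control was -2.31 ± 0.49 (SE) for Pdk4 and -1.25 ± 0.63 for G6pc, with adjusted p of 0.119 and 0.353 in limma. The second scan held replicate 3 of both groups, 1 array each, and gave -3.05 for Pdk4 and -2.45 for G6pc without a test. Replicate 3 of each group lay within spot noise of replicate 2, although labelled as a separate mouse. The 2 arrays were counted as 1 sample, so the second scan is not taken as a separate check.

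Around these genes, 7 lists of 176 pathway genes were described, with the 9 left out of them. None of the lists held a called gene at MCT 270 against control. Each list's counts at MCT 330 against control stand beside 23.9% of all genes that fell and 9.48% that rose, and a share near those is no result about the list. Of 28 genes of glucose uptake and glycolysis, 10 rose and 7 fell, the fallen share being near that of all genes, with a median of 0.66 beside -0.25 over all genes. Pkm, the pyruvate kinase of most tissues other than liver, rose by 3.15 ± 0.21 (SE, adjusted p = 0.00883, limma). Slc2a3, which encodes the glucose transporter GLUT3 of neurons and white blood cells, rose by 3.32 ± 0.38. Slc16a3, which encodes a lactate exporter, rose by 3.07 ± 0.24, and Pfkfb3, which makes the activator of phosphofructokinase, by 2.88 ± 0.22. Txnip, which curbs glucose uptake, fell by 1.14. In MCT 270 against control Txnip was at -1.40 ± 0.19 without passing (adjusted p = 0.0928, limma).

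Of 11 neutrophil markers, 9 rose at MCT 330 against control, beside 9.48% of all genes. Among the 9, Clec4e, Cxcr2, Il1r2, Mmp8 and Mmp9 were well above background on 0 control arrays, and Retnlg on 1 of 3. These were tested only because a dosed group passed the filter, which favours a rise. The summed signal of the 11 markers was 239.9 times the array's 75th percentile in MCT 330, against 13.6 to 18.2 in control. In MCT 270 that sum was 19.1 to 45.9. Most of the sum in MCT 330 came from 1 marker, Lcn2, at a log2 signal of 7.63, with S100a9 next at 4.69. The part of neutrophils in the glycolysis values was not tested. Hepatocyte markers summed to 3302 in MCT 330, against 3873 to 4373 in control. Of them, 4 of 17 fell (Apoa1, Apoh, Cyp2e1 and Glul), a share near the 23.9% of all genes. Alb was at -0.31 (adjusted p = 0.327, limma) and Ttr at -0.61 (adjusted p = 0.0945). All 17 hepatocyte markers were well above background in at least 1 group. Sinusoidal endothelial markers summed to 10.6 in MCT 330 and 15.8 to 18.9 in MCT 270, against 40.0 to 41.3 in control. At MCT 330 against control 10 of 12 fell, beside 23.9% of all genes. In whole liver, fewer cells of a type and less RNA per cell cannot be told apart, and the part of either in the fall of the glucose genes was not tested.

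Of 26 further genes of gluconeogenesis and its carbon supply, 5 fell and 2 rose at MCT 330 against control, with a median of -0.34 beside -0.25 over all genes. The fallen share was below the 23.9% of all genes. Slc37a4, the transporter that brings glucose-6-phosphate to G6pc's enzyme, fell by 1.22 ± 0.27 (SE, adjusted p = 0.0301, limma), and its values did not overlap between the groups. Pcx, pyruvate carboxylase, fell by 1.02 ± 0.21 and Mdh1, the cytosolic malate dehydrogenase, by 1.15 ± 0.28. Under the 22 alternatives the call was lost in 8 for Slc37a4 and in 4 each for Pcx and Mdh1. Tpi1, which serves glycolysis and gluconeogenesis alike, rose by 0.99 ± 0.24. Between the doses 1 of the 26 was called: Pck2, the mitochondrial partner of Pck1, which fell by 0.96 and was chosen for mention after its value was seen.

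In the glycogen list 3 of 20 rose and 2 fell at MCT 330 against control, beside 9.48% and 23.9% of all genes, with a median of -0.05 beside -0.25. Gys1, the glycogen synthase of muscle and other tissues, rose by 0.99 ± 0.21 (SE, adjusted p = 0.0273, limma) where the liver form Gys2 fell. Ppp1r3b, a liver glycogen-targeting subunit of protein phosphatase 1, fell by 1.27 ± 0.28. Pgm2 rose by 2.21 ± 0.25 and Ppp1r3d, another targeting subunit, by 1.41 ± 0.20. Ppp1r3g, a targeting subunit raised by fasting in mouse liver, was at -2.81 ± 0.82 (adjusted p = 0.0568) in MCT 330 and -2.38 ± 0.67 (adjusted p = 0.182) in MCT 270 against control.

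Beside Pdk4, the pyruvate dehydrogenase list held 10 tested genes, of which 1 rose and 2 fell at MCT 330 against control, shares near those of all genes, with a median of -0.29 beside -0.25. Pdp1 and Pdp2 encode the phosphatases that undo what the kinases do, and they moved apart: Pdp1 rose by 2.54 ± 0.25 (SE) and Pdp2 fell by 2.38 ± 0.20, both with an adjusted p of 0.00883 in limma. Pdk2, another kinase of the complex, fell by 0.93 ± 0.21. Between the doses these 3 genes moved the same way, by 2.31 for Pdp1, -1.98 for Pdp2 and -0.89 for Pdk2. Pdk3 was at 1.03 ± 0.46 in MCT 270 against control (adjusted p = 0.318) and was well above background on only 1 of 3 control arrays.

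In the glucagon and insulin signalling list 5 of 29 rose and 5 fell at MCT 330 against control, beside 9.48% and 23.9% of all genes, with a median of -0.04 beside -0.25. Adcy9, an adenylyl cyclase, fell by 1.62 ± 0.19 (SE, adjusted p = 0.00962, limma), and Pde4b, a phosphodiesterase that destroys cyclic AMP, rose by 1.92 ± 0.23. Gcgr, the glucagon receptor, fell by 1.17, and Irs2 and Irs1, the docking proteins of the insulin receptor, fell by 1.24 and 0.91; these 3 were chosen after their values were seen. Pik3r1, the regulatory subunit of phosphoinositide 3-kinase, rose by 1.43 ± 0.29. Grb10, an adaptor that dampens the insulin receptor, was not well above background on any control array, and its signal in MCT 330 was at least 1.1-fold higher (adjusted p = 0.0167).

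Among 37 regulators of glucose genes, 8 fell and 1 rose at MCT 330 against control, a fallen share near the 23.9% of all genes, with a median of -0.30 beside -0.25. Ppargc1b, the relative of Ppargc1a, fell by 3.09 ± 0.30 (SE, adjusted p = 0.00883, limma). Ppara, the fatty acid receptor that drives fasting genes including Pdk4, fell by 1.66 ± 0.19. Srebf1, which insulin raises, fell by 1.49 ± 0.24 in MCT 330 against control, while MCT 270 against control was at 1.26 ± 0.20 without passing (adjusted p = 0.0981). Between the doses Srebf1 fell by 2.75, the opposite order to Pdk4. Nr4a1, an immediate early nuclear receptor induced by glucagon, rose by 1.30 ± 0.20, and Foxo1 was at -0.30 with an adjusted p of 0.367. Crebbp was at 1.61 ± 0.97 in MCT 270 against control (adjusted p = 0.437), where control replicate 1 lay at -1.57 and the other control sample at 1.33.

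Of 19 other genes of the fasting and glucocorticoid response, 5 fell, 1 rose and 13 were not called at MCT 330 against control. The fallen share was near the 23.9% of all genes, and the median was -0.78 beside -0.25. With each array set on its median, 2 fell and 2 rose, where 3412 of all 24820 genes fell and 4109 rose. Cpt1a, the gate of fatty acids into mitochondria, fell by 1.28 ± 0.32 (SE, adjusted p = 0.0387, limma), Cyp4a14, a PPAR-alpha target, by 1.40 ± 0.35 and Fgf1 by 1.29 ± 0.20. Fgf21, the fasting hormone of the liver, had its largest difference at MCT 270, -4.34 ± 0.95 (adjusted p = 0.136), where it was well above background on 2 of 3 arrays.

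**Figure D4:**
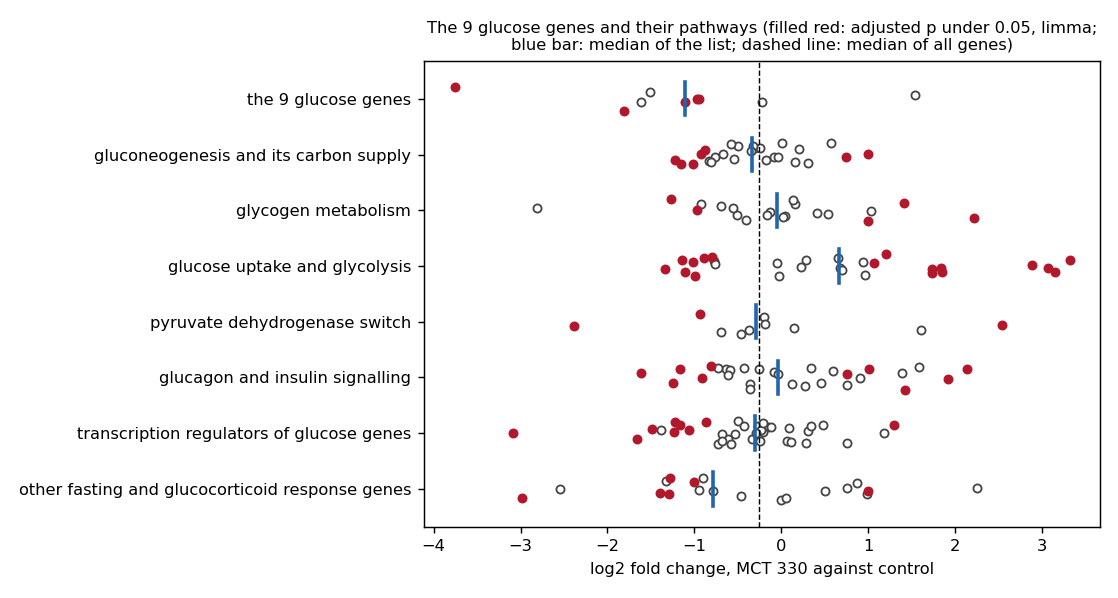
Log2 fold change in MCT 330 against control (x axis) of the 9 glucose genes and of the tested genes of the 7 pathway lists (1 row per list, points spread up and down for sight only). Filled points passed an adjusted p of 0.05 in limma, the short bar is each list's median and the dashed line the median of all genes at -0.25; glucose uptake and glycolysis has its median to the right at 0.66, and the 9 glucose genes to the left at -1.11.

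The counts of the lists depend on the scaling of the arrays. With each array set on its median, 12 of 28 genes of glucose uptake and glycolysis rose and 0 fell at MCT 330 against control. Of 26 gluconeogenesis genes 2 rose and 0 fell, and of 20 glycogen genes 5 rose and 0 fell. The pyruvate dehydrogenase list had 2 of 10 higher and 1 lower, the signalling list 8 of 29 and 2, and the regulators 2 of 37 and 4. Of all 24820 genes, 4109 rose and 3412 fell under that scaling, against 2352 and 5930 as scaled here. The glucose genes that fell under it were G6pc and Gys2. Under that scaling the median of all genes at MCT 330 against control moved from -0.25 to 0.13, and the list medians moved with it. Gluconeogenesis, the pyruvate dehydrogenase switch and the regulators were then at 0.04, 0.09 and 0.08, below the median of all genes as before. Glycogen was at 0.33 and glucagon and insulin signalling at 0.35, above it as before. The fasting list was at -0.40 and the glucose genes at -0.73, below it as before.

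Genes with the most similar values were sought among 13746 genes well above background on all arrays, by the root mean square difference of centred log2 values over the 5 samples. For Pdk4 they were Myom1 (0.26), Igfbp1 (0.55) and Gadd45b (0.56). Myom1 encodes a protein of the muscle sarcomere, Igfbp1 a binding protein of insulin-like growth factors that insulin lowers, and Gadd45b a stress-response protein. Igfbp1 had log2 signals of 5.80 and 7.11 in control, 5.09 and 3.72 in MCT 270 and 7.22 in MCT 330. Its lowest samples were those of MCT 270, as for Pdk4, with differences of -2.06 ± 0.64 (SE, adjusted p = 0.207) for MCT 270 against control and 2.82 ± 0.78 (adjusted p = 0.0639) between the doses in limma. Gadd45b rose by 3.39 between the doses.

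**Figure D5:**
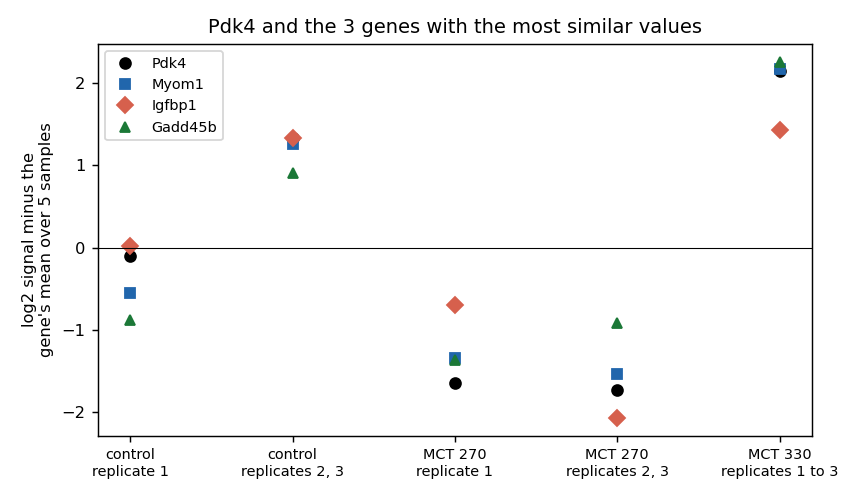
Log2 signal of Pdk4 and of its 3 most similar genes minus each gene's mean over the 5 samples (y axis) in each sample (x axis). All 4 genes are lower in both MCT 270 samples than in the MCT 330 sample.

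For G6pc the most similar were Ehd3, Vwa8 and Fam171b (0.41 to 0.42), of which Ehd3 also stands in the endothelial marker list. Those of Fbp1 were Pla2g1b, Ly6m and Creb3l3 (0.03 to 0.05). Creb3l3 encodes a liver transcription factor of the fasting response, and it fell by 1.22 in MCT 330 against control. For Gys2 they were Acat1, Card9 and Khdrbs3, for Pygl Lrrc38, Hspa12b and Cyp2j13, and for Slc2a2 Fndc7, Inca1 and Sh3bp1, all within 0.03 to 0.07. With 5 samples and a single one at 330 mg/kg, many genes share such a pattern, and these likenesses are descriptions.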

How the data were processed

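Liver mRNA and miRNA were profiled on arrays labelled as the same 9 mice; the miRNA arrays were not used here. The authors deposited scanner intensities of 1-colour arrays made, per the submitters' processing notes, with Agilent Feature Extraction 11.0.1.1 and already background-subtracted and detrended per the file headers. The log2 values were computed here from those deposited intensities: log2 processed signal minus the array's 75th percentile, over 43020 non-control spots of 44397. Spots flagged as outliers were left out, spots of a probe were averaged, a probe was kept if every array of some group held it well above background, and the brightest probe stood for its gene (24820 genes). Names came from RefSeq (21464 of 33258 systematic names matched).

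Arrays of a group no further apart than repeated spots were averaged, so 9 arrays made 5 samples. The measure, a robust SD over the brightest 60% of probes, was settled after the distances were seen: over all probes MCT 330 replicate 1 lay at 0.888 and 0.917 times the noise by a robust SD and at 1.19 and 1.24 by a plain SD, which would have made 6 samples. The design foresaw 5, from an earlier description of these data, and the fit of 5 calls fewer genes than that of 6. Groups were compared with limma 3.58.1 in R 4.3.3 (1 fit over 3 groups, 2 residual degrees of freedom), tested on simulated data. Other steps used Python 3.11.15.

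The 9 genes, the 7 pathway lists and the marker lists were chosen with earlier results of these data known. Pathway genes named are, per list, up to 4 called at MCT 330 against control with the largest change and the gene with the largest change at MCT 270; others are said to be chosen later. Most similar genes are named for the glucose genes called in a comparison. Foxo1 and the hepatocyte markers are named outside this rule; 1 gene picked by the rule is not reported here. Nothing in the labels pairs replicate numbers across groups, and deviations of same-numbered arrays from their group means correlated at -0.03 to 0.04, so no pairing was used. For Grb10, below background in control, a lower bound on the fold is given. The alternatives were other scalings, background correction, probe filters and probe choice, arrays as separate samples with and without blocks, leaving out each array or sample, and, added after the data were seen, a fit within 1 scan.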

Additional observations from a re-analysis of the deposited data

How the results depend on the processing

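Of 603 values of the 9 genes under the alternatives, 499 kept their direction and their side of the threshold, 38 lost a call, 52 gained one and 14 turned in sign, none of the last in a called value. For the 28 called pathway genes that the naming rule picked, 556 of 615 values kept direction and call, 59 lost the call and 0 turned. The cause of these changes was not tested. Against the 5 and 4 glucose genes called at MCT 330 against control and against MCT 270, quantile normalization gave 3 and 2 and median scaling 2 and 2. Of all 24820 genes, 8282 and 5427 were called as reported. Quantile normalization called 7396 and 3888 of them, and median scaling 7521 and 3773. Of genes called at MCT 330 against control, 28.4% were higher as reported, 41.8% under quantile normalization, 54.6% under median scaling and 48.4% under normexp; between the doses these shares were 22.7%, 38.4%, 50.8% and 48.8%. At MCT 270 against control, where limma called 0 genes, median scaling called 31, normexp 500 and the stricter filter 408, with 0 glucose genes each. Without a filter on dim probes, 3639 genes and 1 glucose gene, Gys2, were called at MCT 330 against control and 0 and 0 between the doses (9135 genes at an unadjusted p under 0.05). The 9 arrays as separate samples gave 9552, 18087 and 16140 genes for MCT 270 against control, MCT 330 against control and MCT 330 against MCT 270, with 4, 8 and 9 glucose genes. With the replicate number as a block these were 9321, 17942 and 15972 genes, with 4, 8 and 9, so the block moved no count by over 1.5 times; with scan as a random block they were 8890, 18806 and 17012, with 4, 8 and 9. MCT 330 replicate 1 as its own sample gave 1726, 13743 and 11230 genes with 0, 8 and 7. Leaving out 1 array or sample gave 0 genes and 0 glucose genes at MCT 270 against control, 3702 to 8572 and 3 to 6 at MCT 330 against control, and 0 to 7111 and 0 to 4 between the doses; the count of 3702 came without MCT 270 replicate 1, the count of 3 without that array, without MCT 270 replicates 2 and 3 or without control replicates 2 and 3, and the counts of 0 between the doses without MCT 270 replicate 1 or replicates 2 and 3. Within 1 scan MCT 270 against control gave 1 gene and 0 glucose genes.

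Sign changes at MCT 270 against control were 0.026 for Gys2 and 0.055 for Pygl (quantile), 0.063 and 0.11 (normexp), 0.038 for Ppargc1a (mean of its probes), -0.00365 for Slc2a2 (9 arrays, with either block or none) and 0.16 for Pklr at MCT 330 against control (median scaling). Leaving out 1 array or sample gave -0.11 to 0.21 for Slc2a2, -0.11 to 0.57 for Pklr, -0.28 to 0.010 for Gys2 and -0.76 to 0.16 for Pck1 at MCT 270 against control, and -0.56 to 0.11 for Pklr at MCT 330 against control. With 1 sample at 330 mg/kg the spread of that group was not measured, and the fit takes it from the other groups.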
